A study of Rattus norvegicus with 8 samples.

Results

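The genes described here are 37 genes of DNA damage repair and of the checkpoints that pause the cell cycle while DNA is repaired. They were taken from the 23487 genes of the count table by their symbols, from a list drawn up with earlier results of these data known. All 37 were found and had enough counts to be tested. RNA was sequenced from peritoneal macrophages that were sorted by flow cytometry from female Wistar rats aged 8 weeks, 15 days after an intraperitoneal injection of 2 mg of carbon nanotubes. The rats received either CNT-7, the needle-like MWCNT-XNRI-7 that causes mesothelioma in this model, or CNT-T, a tangled nanotube that does not. There were 4 libraries per particle, each taken here as that of 1 rat, which the labels do not state. The number at the end of each sample title was read as a rat number, which gives CNT-7 rats 3, 5, 10 and 11, and CNT-T rats 1, 2, 12 and 13. RNA of untreated rats was not analysed here, so that each difference is one between the particles and not from the resting state.

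Homologous recombination and the Fanconi anaemia pathway repair double-strand breaks and crosslinks met by replication forks. Recombination uses the sister chromatid, which a cell has only once its DNA is replicated. Non-homologous end joining rejoins broken ends without a template and works in resting cells too. Damage sensors such as ATM and the MRE11 complex respond to broken ends. The members were divided into 19 replication-coupled genes (homologous recombination, Fanconi anaemia and mismatch repair), 10 genes of end joining and damage sensing, and 8 others (checkpoint kinases, base excision and single-strand break repair, and polymerase theta).

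Each library held from 27195157 to 33732981 counts, and levels are given as CPM, the share of a library that a gene takes, on the usual per-million scale with TMM library sizes. At these totals 3 counts correspond to at most 0.11 CPM, which covers counting error only. Of 10 macrophage markers 9 were found, of which 4 were called lower (Adgre1, Cd68, Csf1r and Cd163) and 2 higher (Cd14 and Gata6) after CNT-7. The summed level of the 9 was 15359 to 22408 CPM after CNT-7 and 24083 to 34310 CPM after CNT-T. Most of it came from Lyz2, which was not called. The sums without Lyz2 were 2630.5 to 3162.3 CPM after CNT-7 and 3554.2 to 4211.9 CPM after CNT-T. For 6 T cell markers of 7, 1 of which (Cd2) was called higher, the sums ranged from 4.20 to 11.3 CPM with CNT-7 and from 3.75 to 4.14 CPM with CNT-T. Leaving out Lck, which gave most of this sum after CNT-T, they ranged from 1.99 to 6.73 CPM and from 0.215 to 0.791 CPM. Their part in the results below was not tested. B cell, eosinophil, mast cell and mesothelial markers summed to at most 9.33 CPM in any rat, Epx, Upk3b and Wt1 being at 0 counts in all 8. The neutrophil (26.2 to 68.5 CPM) and erythroid (0.989 to 22.6 CPM) sums overlapped between the groups, and Mpo was at 0 counts in all rats. Csf3r made up most of the neutrophil sum in every rat, and 1 of the 8 neutrophil markers, S100a8, was called lower after CNT-7 (log2 fold change -1.46, adjusted p = 0.016). In a sorted population, fewer dividing cells and less RNA per dividing cell cannot be told apart.

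Of the 37 genes, 29 were lower and 1 was higher in CNT-7 than in CNT-T macrophages at an adjusted p-value under 0.10 (edgeR's quasi-likelihood test, Benjamini-Hochberg adjustment over 12124 genes). Over all genes tested, 14.0% were called lower and 13.9% higher. Among the 19 replication-coupled genes 18 were lower, with a median log2 fold change (CNT-7 relative to CNT-T) of -1.16. At least a 2-fold lower level was called in 13 of the 19, against 3.74% of all genes. Of the 10 end joining and sensor genes, 6 were lower and 1 higher, with a median of -0.34, and 7 had a negative fold change. The median of all genes was 0.0083. All 4 CNT-7 rats lay below all 4 CNT-T rats in 15 of the 19 and in 5 of the 10 genes, as they did in 12.6% of all genes (24.9% in either direction). With DESeq2 the counts were also 29 and 1.

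**Figure D1:**
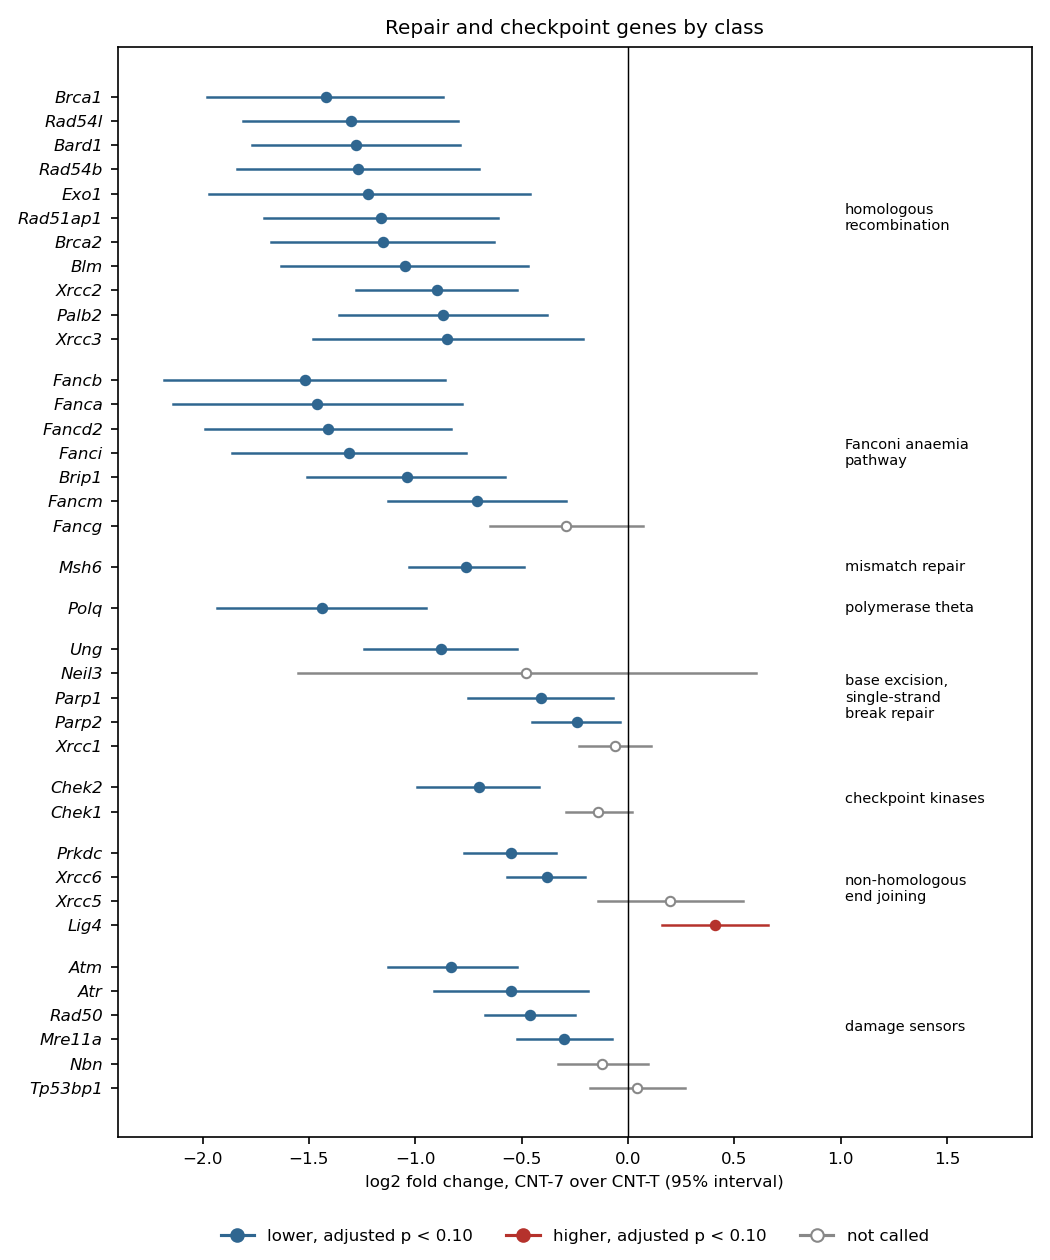
Log2 fold change (CNT-7 relative to CNT-T) for each of the 37 genes, grouped by class, with 95% intervals as lines; filled circles are genes called at an adjusted p-value under 0.10 and open circles those not called. The 11 homologous recombination genes all lie left of 0, between -1.42 and -0.85, whereas the non-homologous end joining genes run from -0.55 to 0.41. Polq, also an end joining gene by mechanism, is shown as a class of its own, at -1.44.

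Promoter windows of RefSeq (GRCr8, 250 bases before to 50 after each gene start) were matched by symbol to 30 of the 37 genes, and not to Rad54b, Blm, Chek2, Nbn, Xrcc2, Prkdc and Neil3. They were searched on both strands for E2F-type words, because E2F factors are known to switch on replication and repair genes before S phase. The words were TTTCCCGC, TTTCGCGC, TTTGCCGC and TTTGGCGC. A match was found in 6 of the 30 windows (20.0%), those of Bard1, Fancd2, Msh6, Atm, Chek1 and Ung, and in 4.47% of the 9196 genes tested that had a window and 2.14% of all 33469 windows. By side, 3 of 16 replication-coupled genes, 1 of 8 end joining and sensor genes and 2 of 6 others (Chek1 and Ung) held one. CHR-type words (TTTGAA or TTCGAA), known from mitotic genes, were found in 6 of the 30 genes and in 14.7% of the genes tested, and CCAAT in 12 and in 39.7%. The upstream 250 bases are shown for Atm, Bard1 and Ung, the 3 genes with the smallest p-values among those whose E2F-type word lies wholly before the start (that of Msh6 begins 5 bases before the start and runs across it), from 5′ to 3′ with the word in capitals. They lie at chr8:62828630-62828879 on the minus strand, chr9:80143756-80144005 on the minus strand and chr12:48154046-48154295 on the minus strand. The word begins 239, 205 and 20 bases before the start. In Atm it reads on the opposite strand.
Atm: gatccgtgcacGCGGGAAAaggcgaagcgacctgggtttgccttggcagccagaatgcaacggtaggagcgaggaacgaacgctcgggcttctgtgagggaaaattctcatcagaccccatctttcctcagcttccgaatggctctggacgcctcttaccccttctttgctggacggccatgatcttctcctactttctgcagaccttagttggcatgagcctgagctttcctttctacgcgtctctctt
Bard1: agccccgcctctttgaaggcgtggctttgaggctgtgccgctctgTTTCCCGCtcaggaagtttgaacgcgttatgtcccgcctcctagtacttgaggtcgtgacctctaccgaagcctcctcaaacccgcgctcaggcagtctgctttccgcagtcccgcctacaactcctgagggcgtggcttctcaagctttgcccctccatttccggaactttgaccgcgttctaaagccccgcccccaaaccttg
Ung: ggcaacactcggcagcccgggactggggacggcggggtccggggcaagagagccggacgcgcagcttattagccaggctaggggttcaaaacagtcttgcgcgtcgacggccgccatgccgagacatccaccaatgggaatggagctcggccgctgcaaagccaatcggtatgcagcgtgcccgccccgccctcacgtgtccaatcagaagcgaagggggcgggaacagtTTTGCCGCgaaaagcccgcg

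Homologous recombination copies the lost sequence from the sister chromatid. All 11 of its genes among the 37 were lower after CNT-7, with log2 fold changes between -1.42 and -0.85. Of 29 further homologous recombination and Fanconi genes, given below, 14 were lower. From here, the levels of single rats are listed in the order CNT-7 rats 3, 5, 10 and 11, then CNT-T rats 1, 2, 12 and 13. Brca1 (ENSRNOG00000020701), which directs the resected break to recombination, had 10.8, 8.78, 6.68 and 16.5 CPM in CNT-7 macrophages against 22.1, 29.3, 32.1 and 31.2 CPM in CNT-T macrophages. The groups were apart, and the CNT-7 mean was 62.7% below that of CNT-T (log2 fold change -1.42 with a standard error of 0.25, adjusted p = 0.004). Bard1 (ENSRNOG00000014960), its obligate partner in the ubiquitin ligase and one of the promoters shown above, had 15.9, 12.6, 9.53 and 21.8 CPM in CNT-7 macrophages against 32.5, 33.2, 39.3 and 39.9 CPM in CNT-T macrophages. The highest CNT-7 rat was again rat 11, and it stayed below the lowest CNT-T rat (log2 fold change -1.28 with a standard error of 0.22, adjusted p = 0.0036). Rad54l (ENSRNOG00000013148), a motor protein that helps the broken strand to invade the intact duplex, had 9.13, 6.83, 5.45 and 12.5 CPM in CNT-7 macrophages against 18.0, 22.4, 21.1 and 22.3 CPM in CNT-T macrophages. It was 59.5% lower after CNT-7, without overlap (log2 fold change -1.30 with a standard error of 0.22, adjusted p = 0.0038). Xrcc2 (ENSRNOG00000007493), a subunit of a complex that assists strand exchange, had 5.55, 4.72, 4.15 and 6.52 CPM in CNT-7 macrophages against 8.05, 10.8, 9.10 and 11.1 CPM in CNT-T macrophages. Its groups did not overlap either (log2 fold change -0.90 with a standard error of 0.17, adjusted p = 0.0058).

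Brca2, a mediator of strand exchange at resected DNA, had 10.7 ± 3.64 (SD, n = 4) against 23.7 ± 4.57 CPM (SD, n = 4) in CNT-7 and CNT-T macrophages, respectively (log2 fold change -1.15 with a standard error of 0.24, adjusted p = 0.0079). Palb2, the bridge between BRCA1 and BRCA2, was lower (log2 fold change -0.87, adjusted p = 0.02), but CNT-7 rat 11 and CNT-T rat 1 both rounded to 11.5 CPM. The helicase gene Blm also overlapped, with 17.2 CPM in CNT-7 rat 11 and 17.0 CPM in CNT-T rat 1 (log2 fold change -1.05, adjusted p = 0.019). Rad51ap1 (-1.16), Rad54b (-1.27) and Exo1 (-1.22) encode a stimulator of strand pairing, another motor protein and an end resection nuclease. They were lower after CNT-7 without overlap, with adjusted p-values of 0.0096, 0.0075 and 0.03. Xrcc3, like Xrcc2 a helper of strand exchange, had the fewest counts of the class, 15 to 57 per rat (log2 fold change -0.85, 95% interval -1.48 to -0.21, adjusted p = 0.061). Its adjusted p-value rose to between 0.11 and 0.15 without CNT-7 rat 3, 5 or 10 or CNT-T rat 1, 2 or 12.

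In the Fanconi anaemia pathway, a core complex attaches ubiquitin to the FANCD2-FANCI pair at crosslinks, and 6 of its 7 genes here were lower after CNT-7. Fancd2 (ENSRNOG00000061085) had 15.5, 10.5, 8.12 and 21.9 CPM in CNT-7 macrophages against 33.4, 38.5, 39.4 and 37.6 CPM in CNT-T macrophages. All CNT-7 rats were below all CNT-T rats, and the mean was 62.4% lower (log2 fold change -1.41 with a standard error of 0.26, adjusted p = 0.0049). Its partner Fanci (ENSRNOG00000016689) had 18.2, 13.2, 9.97 and 25.4 CPM in CNT-7 macrophages against 35.4, 41.8, 44.3 and 44.0 CPM in CNT-T macrophages. The rats kept the order seen in Fancd2 after CNT-7, with rat 11 highest and rat 10 lowest (log2 fold change -1.31 with a standard error of 0.24, adjusted p = 0.0054). Fancb (ENSRNOG00000003346), a core complex subunit, had 3.32, 3.08, 1.52 and 4.42 CPM in CNT-7 macrophages against 6.06, 9.46, 9.76 and 10.1 CPM in CNT-T macrophages. It had the lowest fold change of the 37 genes (log2 fold change -1.52 with a standard error of 0.29, adjusted p = 0.0064).

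Fanca, another core subunit, had 6.17 ± 3.27 (SD, n = 4) against 17.0 ± 1.44 CPM (SD, n = 4) in CNT-7 and CNT-T macrophages, respectively (log2 fold change -1.46 with a standard error of 0.30, adjusted p = 0.0085). Brip1, which encodes the FANCJ helicase that binds BRCA1, was lower without overlap (log2 fold change -1.04, adjusted p = 0.0071). Fancm, which anchors the core complex to DNA, was lower too (log2 fold change -0.71, adjusted p = 0.026), although CNT-7 rat 11 had 20.1 CPM and CNT-T rat 1 20.0 CPM. Fancg, also a core subunit, had 5.24 ± 0.933 (SD, n = 4) against 6.41 ± 0.783 CPM (SD, n = 4) in CNT-7 and CNT-T macrophages, respectively, and was the replication-coupled gene that was not called. Its interval, -0.65 to 0.073, included 0 and left out its class median, -1.31 (log2 fold change -0.29, adjusted p = 0.25).

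Msh6 (ENSRNOG00000016134), which recognises base mismatches behind the fork, had 32.2, 31.6, 32.4 and 38.7 CPM in CNT-7 macrophages against 44.5, 62.8, 58.2 and 63.1 CPM in CNT-T macrophages. All CNT-7 rats lay below all CNT-T rats (log2 fold change -0.76 with a standard error of 0.12, adjusted p = 0.0026). Polq (ENSRNOG00000002471) encodes polymerase theta, which joins resected ends by short homologies. Polq was placed among the 8 others, so that the counts and median of the 10 end joining and sensor genes leave it out. It had 5.42, 4.62, 3.11 and 7.24 CPM in CNT-7 macrophages against 12.4, 13.3, 14.8 and 14.9 CPM in CNT-T macrophages. It was an end joining gene by mechanism, but its fold change was as low as those of the recombination genes and its p-value was the smallest of the 37 (log2 fold change -1.44 with a standard error of 0.22, adjusted p = 0.0022).

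The core genes of non-homologous end joining moved in different directions. Xrcc6 (ENSRNOG00000006392), which encodes the Ku70 subunit of the ring that binds broken ends, had 27.7, 25.7, 27.4 and 29.2 CPM in CNT-7 macrophages against 31.5, 38.8, 35.6 and 37.7 CPM in CNT-T macrophages. All CNT-7 rats were below all CNT-T rats, by 23.3% on average (log2 fold change -0.38 with a standard error of 0.084, adjusted p = 0.011). Xrcc5 (ENSRNOG00000016105), which encodes the other subunit, Ku80, had 13.6, 15.6, 21.7 and 16.4 CPM in CNT-7 macrophages against 12.8, 15.2, 13.6 and 17.0 CPM in CNT-T macrophages. The groups overlapped, CNT-7 rat 10 being highest, and no difference was called (log2 fold change 0.20, 95% interval -0.14 to 0.54, adjusted p = 0.41). Prkdc (ENSRNOG00000025028), the DNA-dependent protein kinase that Ku recruits, had 36.6, 33.8, 33.6 and 39.5 CPM in CNT-7 macrophages against 45.1, 50.6, 57.4 and 57.2 CPM in CNT-T macrophages. It was 31.8% lower after CNT-7, without overlap (log2 fold change -0.55 with a standard error of 0.096, adjusted p = 0.004). Lig4 (ENSRNOG00000014605), the ligase that seals the ends, had 33.8, 38.8, 38.1 and 31.2 CPM in CNT-7 macrophages against 25.8, 22.9, 31.5 and 26.7 CPM in CNT-T macrophages. It was the gene of the 37 that was called higher after CNT-7 (log2 fold change 0.41 with a standard error of 0.11, adjusted p = 0.028), and the lowest CNT-7 rat, rat 11, was just below the highest CNT-T rat, rat 12. In the 8 fits that each left out 1 rat its log2 fold change stayed between 0.34 and 0.50.

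Of the 6 damage sensor genes, 4 were lower after CNT-7. Atm (ENSRNOG00000029773), the kinase that responds to double-strand breaks, had 56.0, 42.9, 43.7 and 56.4 CPM in CNT-7 macrophages against 75.5, 78.4, 104 and 94.3 CPM in CNT-T macrophages. The groups were apart and the mean was 43.6% lower, the lowest fold change among the sensors (log2 fold change -0.83 with a standard error of 0.13, adjusted p = 0.0029). Atr (ENSRNOG00000010027), its counterpart at stalled forks, had 19.5, 14.6, 14.5 and 18.6 CPM in CNT-7 macrophages against 19.3, 22.2, 26.5 and 30.7 CPM in CNT-T macrophages. CNT-7 rat 3 was just above CNT-T rat 1 (log2 fold change -0.55 with a standard error of 0.16, adjusted p = 0.036), and without CNT-7 rat 5 the adjusted p-value was 0.10, no longer under the threshold. The MRE11-RAD50-NBN complex binds broken ends and activates ATM. Its gene Rad50 (ENSRNOG00000033065) had 42.2, 39.9, 37.8 and 50.0 CPM in CNT-7 macrophages against 55.0, 61.9, 59.9 and 57.3 CPM in CNT-T macrophages. It was lower in every CNT-7 rat (log2 fold change -0.46 with a standard error of 0.093, adjusted p = 0.0074). Mre11a (ENSRNOG00000009506), the nuclease, had 31.7, 25.7, 26.9 and 31.1 CPM in CNT-7 macrophages against 32.0, 36.1, 33.9 and 39.7 CPM in CNT-T macrophages. The groups were apart by a narrow margin (log2 fold change -0.30 with a standard error of 0.099, adjusted p = 0.06), and without CNT-7 rat 5 or 10 or CNT-T rat 2 or 13 the adjusted p-value was between 0.13 and 0.15. Nbn (ENSRNOG00000008580), the remaining subunit, had 56.5, 58.0, 66.0 and 60.9 CPM in CNT-7 macrophages against 61.3, 57.8, 66.6 and 76.5 CPM in CNT-T macrophages. The groups overlapped (log2 fold change -0.12, 95% interval -0.33 to 0.095, adjusted p = 0.43). Tp53bp1 (ENSRNOG00000013837), which encodes 53BP1, the chromatin factor that shields ends from resection, had 28.7, 23.8, 33.1 and 27.9 CPM in CNT-7 macrophages against 29.6, 26.4, 26.9 and 27.2 CPM in CNT-T macrophages. Its values overlapped as well, and its interval excluded a change of 2-fold (log2 fold change 0.045, 95% interval -0.18 to 0.27, adjusted p = 0.8).

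**Figure D2:**
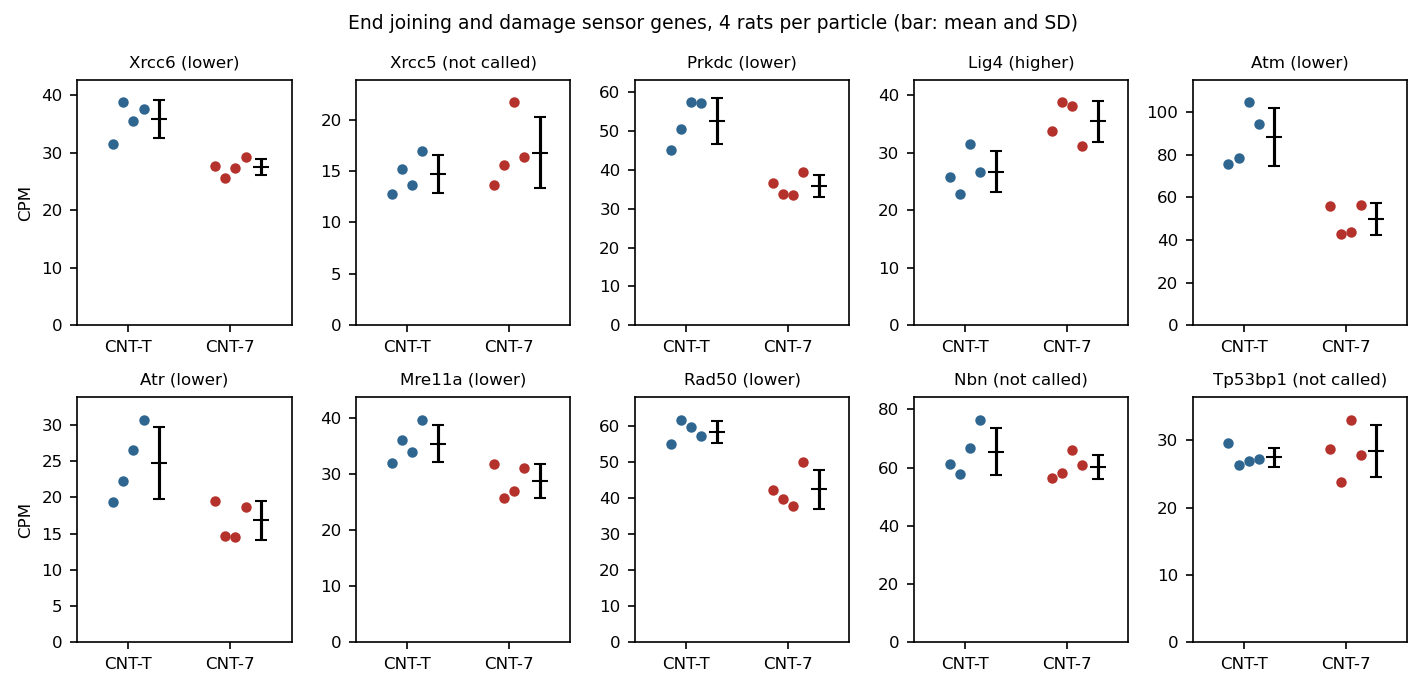
Level in CPM, from 0, of the 10 end joining and damage sensor genes in 4 CNT-T and 4 CNT-7 rats; points are rats, and the bar beside them is the mean with its SD. Atm, Prkdc, Rad50, Xrcc6 and Mre11a have no overlap between the groups. Lig4 is called higher and Atr lower after CNT-7, both with overlap, and Xrcc5, Nbn and Tp53bp1 overlap and are not called.

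The checkpoint kinases relay the signal of the sensors to the cell cycle. Chek2 (ENSRNOG00000037509), the target of ATM, had 19.9, 17.0, 14.1 and 20.5 CPM in CNT-7 macrophages against 26.0, 28.9, 33.0 and 28.3 CPM in CNT-T macrophages. It was 38.5% lower after CNT-7 in groups that were apart (log2 fold change -0.70 with a standard error of 0.13, adjusted p = 0.0048). Chek1 (ENSRNOG00000031896), the target of ATR, had 274, 253, 262 and 288 CPM in CNT-7 macrophages against 298, 304, 275 and 307 CPM in CNT-T macrophages. CNT-7 rat 11 lay within the CNT-T range, and no difference was called (log2 fold change -0.14, 95% interval -0.29 to 0.021, adjusted p = 0.21).

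Base excision repair removes single damaged bases, and its genes also gave a mixed picture. Ung (ENSRNOG00000000692), which removes uracil from DNA and whose promoter is shown above, had 16.1, 12.7, 10.0 and 18.1 CPM in CNT-7 macrophages against 25.8, 27.8, 25.6 and 25.8 CPM in CNT-T macrophages. It was lower in all CNT-7 rats, by 45.8% (log2 fold change -0.88 with a standard error of 0.16, adjusted p = 0.0048). Neil3 (ENSRNOG00000011688), a glycosylase of dividing cells, had 0.460, 0.168, 0.181 and 0.398 CPM in CNT-7 macrophages against 0.391, 0.296, 0.264 and 0.752 CPM in CNT-T macrophages. These are 5 to 21 counts per rat, and a difference was not detectable at this depth (log2 fold change -0.48, 95% interval -1.55 to 0.60, adjusted p = 0.54). Xrcc1 (ENSRNOG00000019915), the scaffold of single-strand break repair, had 36.8, 38.1, 36.9 and 40.6 CPM in CNT-7 macrophages against 43.2, 36.0, 40.9 and 39.1 CPM in CNT-T macrophages. Its groups overlapped, and its interval was the narrowest of this class (log2 fold change -0.063, 95% interval -0.23 to 0.11, adjusted p = 0.61). Parp1 (ENSRNOG00000003084), which senses nicks and marks them with poly(ADP-ribose), had 106, 89.6, 83.1 and 141 CPM in CNT-7 macrophages against 138, 154, 130.1 and 135 CPM in CNT-T macrophages. It was called lower, with CNT-7 rat 11 inside the CNT-T range (log2 fold change -0.41 with a standard error of 0.15, adjusted p = 0.089). Without that rat its log2 fold change was -0.58 and it was still called, but without any one of the other 7 rats the adjusted p-value was between 0.13 and 0.21, and with a term for the rat number range it was 0.11. Parp2 (ENSRNOG00000008892), its homologue, had 24.4, 21.5, 22.0 and 25.2 CPM in CNT-7 macrophages against 23.9, 27.7, 29.2 and 29.5 CPM in CNT-T macrophages. The groups overlapped (log2 fold change -0.24 with a standard error of 0.093, adjusted p = 0.094), and the call was lost without CNT-7 rat 3, 5 or 10 or CNT-T rat 2, 12 or 13, at adjusted p-values between 0.13 and 0.21.

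The rats of a group kept much the same order across the replication-coupled genes. After CNT-7, rat 10 was lowest and rat 11 highest in 18 of the 19 genes each, and after CNT-T, rat 1 was lowest in 18. As medians over the 19 genes, the levels were 0.471, 0.382, 0.276 and 0.635 times the CNT-T mean in CNT-7 rats 3, 5, 10 and 11. In the 10 end joining and sensor genes they were 0.827, 0.721, 0.761 and 0.866 times, and rat 10 was lowest in 3 genes and rat 11 highest in 4. The SD of log2 CPM was larger after CNT-7 than after CNT-T in 18 of the 19 (medians 0.52 and 0.23) but in 4 of the 10 (0.16 and 0.17), and in 51.3% of all genes. The genes within a side were measured in the same rats and are not independent of each other. Therefore these counts carry no p-value.

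**Figure D3:**
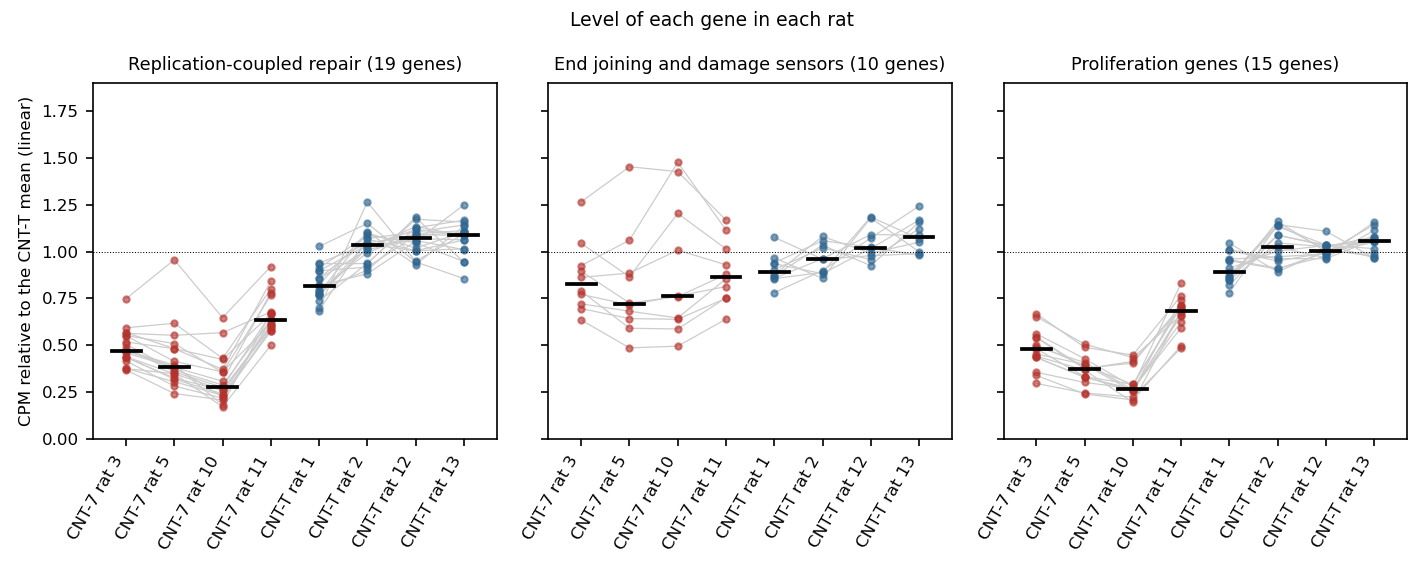
Level of each gene in each rat relative to its own CNT-T mean (linear axis), for the 19 replication-coupled genes, the 10 end joining and sensor genes and 15 proliferation genes; points are genes, grey lines join a gene across rats and black bars are medians. In the panels of replication-coupled and of proliferation genes rat 10 has the lowest and rat 11 the highest median of the CNT-7 rats (0.276 and 0.635, and 0.269 and 0.681), whereas the CNT-7 medians of the middle panel stay between 0.721 and 0.866.

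Proliferation genes moved beside the repair genes. Of 16 such genes 15 were measured, and all 15 were called lower after CNT-7 (median log2 fold change -1.16). Mki67, a marker of cycling cells, had 129.9, 92.1, 79.7 and 190.5 CPM in CNT-7 macrophages against 385, 363, 381 and 402 CPM in CNT-T macrophages (log2 fold change -1.64 with a standard error of 0.24, adjusted p = 0.0018). Pcna, the sliding clamp of replication, had 119, 92.2, 79.2 and 120.5 CPM in CNT-7 macrophages against 155, 191, 187 and 197 CPM in CNT-T macrophages (log2 fold change -0.83 with a standard error of 0.14, adjusted p = 0.0038). Rat 10 was lowest in 13 and rat 11 highest in 15 of the 15 genes after CNT-7, as in the replication-coupled repair genes. Relative to 100 CPM of the summed proliferation genes, the replication-coupled genes summed to 20.5, 22.2, 22.8 and 20.1 CPM in CNT-7 rats 3, 5, 10 and 11 and to between 17.6 and 20.5 CPM in the CNT-T rats. The end joining and sensor genes summed to 37.2, 44.2, 60.8 and 27.9 CPM on the same basis after CNT-7 and to between 19.5 and 22.1 CPM after CNT-T. These ratios follow their denominator, which was 563.5 to 1295.8 CPM after CNT-7 and 1856.9 to 2113.4 CPM after CNT-T. The summed level of the end joining and sensor genes itself was lower after CNT-7, at 318.7 to 361.3 CPM against 387.8 to 464.4 CPM, without overlap. The part of cell division in the differences between the particles was not tested.

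Other genes of the same pathways were read from the same test over all genes, in which 14.0% were called lower and 13.9% higher. Of 29 further homologous recombination and Fanconi genes tested, 14 were lower after CNT-7 and 15 were not called. Their median log2 fold change was -0.33, beside -0.34 for the 10 end joining and sensor genes. Among the lower genes were Rad51b (-1.63) and the nuclease gene Eme1 (-1.33), with adjusted p-values of 0.0043 and 0.0064. Of 16 further checkpoint and damage signalling genes, 12 were lower, led by Clspn (-1.31), the mediator between ATR and CHEK1, the fork protection gene Timeless (-1.19) and the histone gene H2afx (-1.03). Rnf8 (log2 fold change 0.38, adjusted p = 0.05), a ubiquitin ligase at breaks, was called higher, and this call was lost without CNT-7 rat 5, CNT-T rat 2 or CNT-T rat 13. Of 6 further mismatch repair genes 5 were lower, among them Msh3 (-0.70), a subunit that recognises small loops. In base excision, 5 of 15 were lower, among them the flap nuclease gene Fen1 (-1.24), the replicative ligase gene Lig1 (-1.19) and Tdp1 (-0.71), and without CNT-7 rat 11, 1 was called higher.

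Of 11 further end joining genes 1 was lower, 2 were higher and 8 were not called, with a median log2 fold change of -0.032. Over all genes tested 27.9% were called in either direction. The list is close to that share, and nothing is read from these calls about the list. Dclre1c, which encodes the Artemis nuclease, had 41.7 ± 2.18 (SD, n = 4) against 33.3 ± 0.590 CPM (SD, n = 4) in CNT-7 and CNT-T macrophages, respectively, and was higher (log2 fold change 0.32 with a standard error of 0.064, adjusted p = 0.0072). Polm, the gap-filling polymerase mu, was also called higher (log2 fold change 0.28 with a standard error of 0.11, adjusted p = 0.095). In every fit that left out 1 rat, except that without CNT-T rat 1, only 1 gene of this list was called higher, as with a term for the rat number range, with no filter on low counts and at a threshold of 0.05. Without CNT-T rat 13, 2 were lower. Rif1, a partner of 53BP1 that also times replication, was lower (log2 fold change -0.75 with a standard error of 0.13, adjusted p = 0.0041).

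**Figure D4:**
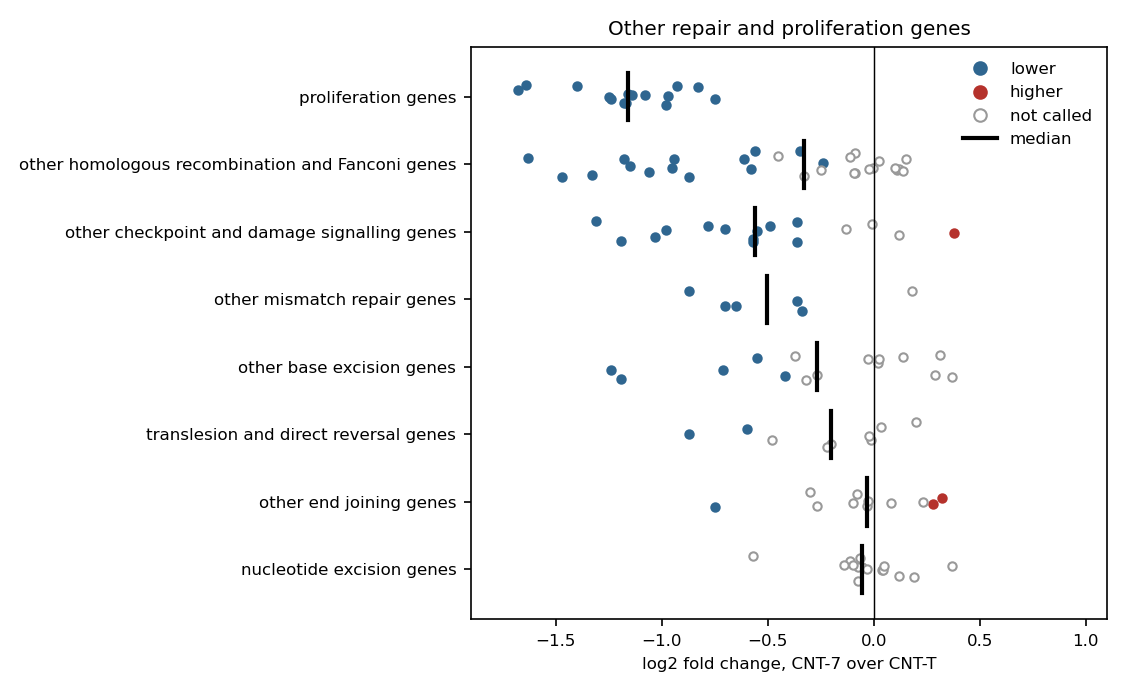
Log2 fold change (CNT-7 relative to CNT-T) of the tested genes of 8 lists outside the 37 genes; filled points are called at an adjusted p-value under 0.10, open points are not, black bars are medians and the vertical spread within a list carries no value. The 15 proliferation genes lie left of 0 (median -1.16), whereas the end joining and nucleotide excision lists centre near 0 (-0.032 and -0.056).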

How the data were processed

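The 8 RNA-seq libraries were those of macrophages sorted from the peritoneal lavage, 4 from rats given CNT-7 and 4 from rats given CNT-T. Groups were taken from the labels. The authors quantified reads with Salmon (version not given in the sources used here) against Ensembl Rnor_6.0 cDNA within the ARMOR workflow, imported them with tximeta and deposited estimated counts per gene as whole numbers, without normalization. No coordinates of that assembly were used. The 37 genes and all lists were chosen with earlier results of these data known.

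Counts were normalized by TMM, filtered with filterByExpr (minimum count 10, minimum total 15) and tested in edgeR 4.0.16 (R 4.3.3, quasi-likelihood test) over 12124 genes, with Benjamini-Hochberg adjustment and a threshold of 0.10, as in the study. Standard errors come from the log2 fold change and its F statistic, and 95% intervals from the t distribution with the total degrees of freedom. The number in each title was taken as that of a rat. The labels do not say that libraries came from separate animals, so that p-values measure the spread between these libraries, which may be technical. Every pair of libraries differed in its counts in at least 11989 of the genes tested.

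Levels of single rats are given for all genes of the smaller classes, for the 4 recombination and 3 Fanconi genes with the smallest p-values, and for any gene called higher. Of the other lists, up to 3 called genes per direction with the largest change are named. Some genes and 1 list are not reported here. Counts and medians of lists carry no test. Alternatives were DESeq2 1.42.0, upper-quartile factors, other filters and thresholds, the range of the rat numbers (1 to 5 or 10 to 13) as a term and each rat left out. The same alternatives for the other lists were added after seeing the data. The tests were also run on simulated counts with known changes. That check does not cover the many changes reported here that were smaller than those simulated.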

Additional observations from a re-analysis of the deposited data

Results flagged for a closer look

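In 5 of 74 groups of 4 rats, 2 per gene, a single rat lay so far from the other 3 that its gap, as a share of the whole range, passed Dixon's critical value, and 3.7 such groups are expected by chance. Fancb was lowest in CNT-T rat 1, at 6.06 CPM against 9.46 to 10.1 CPM. Blm was lowest in the same rat, at 17.0 CPM against 23.0 to 24.0 CPM. Fancg was highest in CNT-T rat 12, at 7.58 CPM against at most 6.05 CPM. Msh6 was highest in CNT-7 rat 11, at 38.7 CPM against 31.6 to 32.4 CPM. Ung was highest in CNT-T rat 2, at 27.8 CPM against 25.6 to 25.8 CPM.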

How the results depend on the processing

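Under DESeq2, upper-quartile factors, no filter, a floor of 10 counts in each library, a threshold of 0.05 and a term for the rat number range, between 25 and 29 of the 37 genes were called lower and 1 higher, with 17 or 18 of the 19 replication-coupled and 5 or 6 of the 10 end joining and sensor genes lower. A 2-fold requirement, which is stricter by construction, left 14 genes lower and 0 higher, 13 of them replication-coupled and 0 of the end joining and sensor genes, and 1006 of all genes in place of 3383. With each rat left out in turn, 24 to 29 genes were lower (17 or 18 and 4 to 6 by side), and 24 genes, 17 of them replication-coupled, were lower in all 8 of these fits. The median of the replication-coupled genes was then between -1.42 and -0.99, and that of the end joining and sensor genes between -0.39 and -0.30. Of 554 values of single genes under the alternatives, 507 kept their direction and their side of the threshold, 46 lost their call and 1 reversed: Tp53bp1, which is not called in any fit, had log2 fold changes from -0.036 (without CNT-7 rat 10) to 0.12 (without CNT-7 rat 5). Under every scaling and filter the median of all genes lay within 0.027 of 0. The depth limits Neil3 most, with 5 to 21 counts per rat. No paired analysis was possible because the labels give the groups different rat numbers, 3, 5, 10 and 11 and 1, 2, 12 and 13.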

Other observations

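Nucleotide excision repair removes bulky adducts and ultraviolet lesions and does not depend on replication. Of 15 of its genes tested, edgeR called 0 between CNT-7 and CNT-T, beside 27.9% of all genes called in either direction. Among these 15 genes, 1 had an unadjusted p-value under 0.05 and DESeq2 called 1 lower. Their log2 fold changes ran from -0.57 to 0.37, with a median of -0.056. Without CNT-7 rat 11 or CNT-T rat 13 edgeR called 1 of them lower, and without CNT-T rat 12 it called 1 higher.

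Of 9 translesion synthesis and direct reversal genes, 2 were lower after CNT-7 (22.2%, beside 14.0% of all genes tested), a share from which nothing is read about the list. They were Rad18, the ubiquitin ligase that modifies PCNA at stalled forks, with 10.1 ± 3.48 (SD, n = 4) against 18.4 ± 2.35 CPM (SD, n = 4) in CNT-7 and CNT-T macrophages, respectively (log2 fold change -0.87 with a standard error of 0.22, adjusted p = 0.022), and Polh, which encodes the bypass polymerase eta, with 14.4 ± 1.66 (SD, n = 4) against 21.7 ± 1.59 CPM (SD, n = 4) in CNT-7 and CNT-T macrophages, respectively (log2 fold change -0.60 with a standard error of 0.10, adjusted p = 0.0035). The 7 others were not called, and without CNT-7 rat 3 the number lower was 4, and without CNT-T rat 12, or with a term for the rat number range, 1 was higher.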
